A study of Mus musculus with 12 samples.

Results

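The proteins of the cytosolic ribosome were examined in mouse liver after 1 bout of postprandial exercise. Genes were taken by symbol from the deposited table (Rpl or Rps followed by a number, Rplp0 to Rplp2 and Rpsa, without the S6 kinases and Rps19bp1), which gave 91 of 17432 genes. Of these, 77 encode 1 ribosomal protein each (43 of the large subunit, 3 of its stalk and 31 of the small subunit), and 14 are paralogs, retrocopies or pseudogene copies. Fau, which encodes a ribosomal protein fused to a ubiquitin-like protein, has another symbol and is not a member. Low counts left Rpl3l, Rpl10l, Rpl39l, Rpl32l and Rpl34-ps1 untested, so 86 members were tested.

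The mice were male wild-type C57BL/6J, 8 to 10 weeks old. All 12 were fed on a synchronised daytime schedule, acclimated to the treadmill and refed before food was taken away. Exercise mice (n = 6) then ran at 14 m/min for 3 hours, and Sedentary mice (n = 6) did not run. Livers of both groups were taken at 1 time, when the run had ended. Each library was made from the RNA of a whole liver sample, so fewer cells of a type and less RNA per cell cannot be told apart.

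Each cytosolic ribosome contains 1 copy of nearly every ribosomal protein, and the stalk proteins RPLP1 and RPLP2 are present in more copies around RPLP0. The mRNAs of these proteins begin with a run of pyrimidines, the terminal oligopyrimidine (TOP) tract, through which mTORC1 and LARP1 adjust how much of each mRNA is translated when nutrients or insulin change. Regulation of ribosomal proteins is therefore known to occur in large part without a change of mRNA level, and the mRNA level is what was measured here. Rplp0, also called 36B4, was the internal control of the RT-PCR in the study, which makes its level in these livers of direct interest.

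Windows at the annotated start of the gene were searched for runs of pyrimidines. They are shown for Rps27 (the only large or small subunit gene past the test), Rps6, Rpl28, Rps18 and Rplp0. The paralogs Rpl7l1 and Rps23rg1, the other members past the test, are shown beside them. Each window holds 40 bases before and 20 bases from the annotated start on the gene's own strand (RefSeq, GRCm38.p6), and capitals mark runs of at least 7 bases that are each C or T. The windows lie at chr3:90213629-90213688 (minus strand) for Rps27, chr4:86857348-86857407 (minus) for Rps6, chr7:4792925-4792984 (plus) for Rpl28, chr17:33955646-33955705 (minus) for Rps18, chr5:115559427-115559486 (plus) for Rplp0, chr17:46782637-46782696 (minus) for Rpl7l1 and chr8:3567958-3568017 (plus) for Rps23rg1.
Rps27: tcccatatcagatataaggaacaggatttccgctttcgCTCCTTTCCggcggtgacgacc
Rps6: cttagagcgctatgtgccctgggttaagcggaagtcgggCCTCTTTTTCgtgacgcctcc
Rpl28: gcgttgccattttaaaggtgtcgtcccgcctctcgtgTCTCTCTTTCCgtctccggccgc
Rps18: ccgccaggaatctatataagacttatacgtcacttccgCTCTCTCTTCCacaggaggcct
Rplp0: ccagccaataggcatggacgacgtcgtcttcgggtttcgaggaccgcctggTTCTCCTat
Rpl7l1: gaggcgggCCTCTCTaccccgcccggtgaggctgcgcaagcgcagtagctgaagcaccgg
Rps23rg1: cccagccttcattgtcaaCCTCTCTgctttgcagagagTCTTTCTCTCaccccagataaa
In Rps27, Rps6, Rpl28, Rps18 and Rps23rg1 a run spans the annotated start. In Rplp0 it begins a little further in, and in Rpl7l1 the run lies well before the start.

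Starts were listed in RefSeq for 69 members (81 starts). A run of at least 7 bases that are each C or T, placed from 10 bases before to 30 bases after the start, was found at 52 of the 81 starts (64.2%), against 25.7% of all 32851 starts and 23.9% of the 12692 starts of tested genes. The letters CTTTCC, which can overlap such a run, stood on the gene's strand within 300 bases at 38.3% of members' starts, against 14.1% of all starts and 14.7% of the starts of tested genes. The letters CCGGAAG, on either strand, were present at 33.3% of members' starts, against 8.86% of all starts and 16.8% of the starts of tested genes. GGGCGG on either strand was present at 56.8% of members' starts, against 35.7% of all starts and 60.1% of those of tested genes. TATAAA on the gene's strand was present at 9.88% of members' starts, 8.32% of all starts and 4.66% of those of tested genes, and CACGTG on either strand at 9.88%, 7.15% and 9.64%. These matches describe letters in the sequence and not use by a factor.

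Levels per transcript length (FPKM, fragments scaled for the length of the transcript and the depth of the library) placed the group among the abundant mRNAs of liver, with a median of 366 FPKM over the 77 genes with 1 protein each. The highest were Rpl41, which encodes the smallest ribosomal protein, at 1244 ± 153 FPKM (SD, n = 6) in sedentary and 1126 ± 80.8 FPKM in exercised livers, and Rps2 at 1038 ± 103 and 980.2 ± 72.6 FPKM. Rpl10, Rplp1 and Rpl28 followed with means of 852, 837 and 818 FPKM over the 12 livers. These 5 are spread over both subunits and the stalk.

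Only 4 of the 77 had a mean of 100 FPKM or less, namely Rpl22 (54.0), Rps20 (38.1), Rps15a (13.8) and Rps6 (9.58). For Rps15a and Rps20 the deposited count and FPKM together imply transcripts of about 5087 and 3397 bases, near the longest ones annotated in GENCODE (5179 and 3706 bases) and far from the shortest (250 and 512 bases). Their place in the order therefore depends on which transcript the length stands for. The reads of Rps6 were divided with a copy, which is described with the copies.

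Few members differed between the groups. At an adjusted p under 0.05 (edgeR's quasi-likelihood test, Benjamini-Hochberg adjustment over 12344 genes), 3 of the 86 members passed, 1 higher and 2 lower, whereas 42.4% of all genes tested did (21.1% higher and 21.3% lower). With library size alone as the scale, 1767 genes were called higher and 3735 lower, against 2603 and 2626 here. The median log2 fold change of the members was 0.016, beside -0.003 over all genes tested. Above 0 were 61 of the 86 values, against 6117 of the 12344 genes tested. The members moved together from liver to liver, so these values are not independent. With library size alone their median was -0.079. The typical size of a change was small as well, with a median absolute log2 fold change of 0.032 in the members and 0.21 over all genes. Of the 77 genes with 1 protein each, 1 passed the test, and it belonged to the small subunit.

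A missed threshold does not show that a gene kept its level, so the width of the intervals was examined. For 81 of 86 members the 95% interval of the fold change lay within 0.32 (log2) of no change in either direction, against 32.0% of all genes tested. The members outside that band were Rps27, Rpl7l1, Rps23rg1, Rpl37rt and Rps27rt, which include the 3 that passed the test and 2 copies with few or unsteady counts. Abundant genes as a whole gave other counts. Of the 1201 genes that averaged 100 CPM or more (counts scaled to library depth with TMM factors), 38.3% passed the test and 60.2% had an interval within 0.32, where 77 members at that level gave 1 call and 76 such intervals. Precision was alike in these sets, with a median standard error of 0.069 (log2) in the 77 members and 0.068 in the 1201 genes. The 77 members at that level are not the same set as the 77 genes with 1 protein each. The set by level includes Rps6-ps4, Rps27l and Rpl36al and lacks Rps6, Rps15a and Rpl39.

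**Figure D1:**
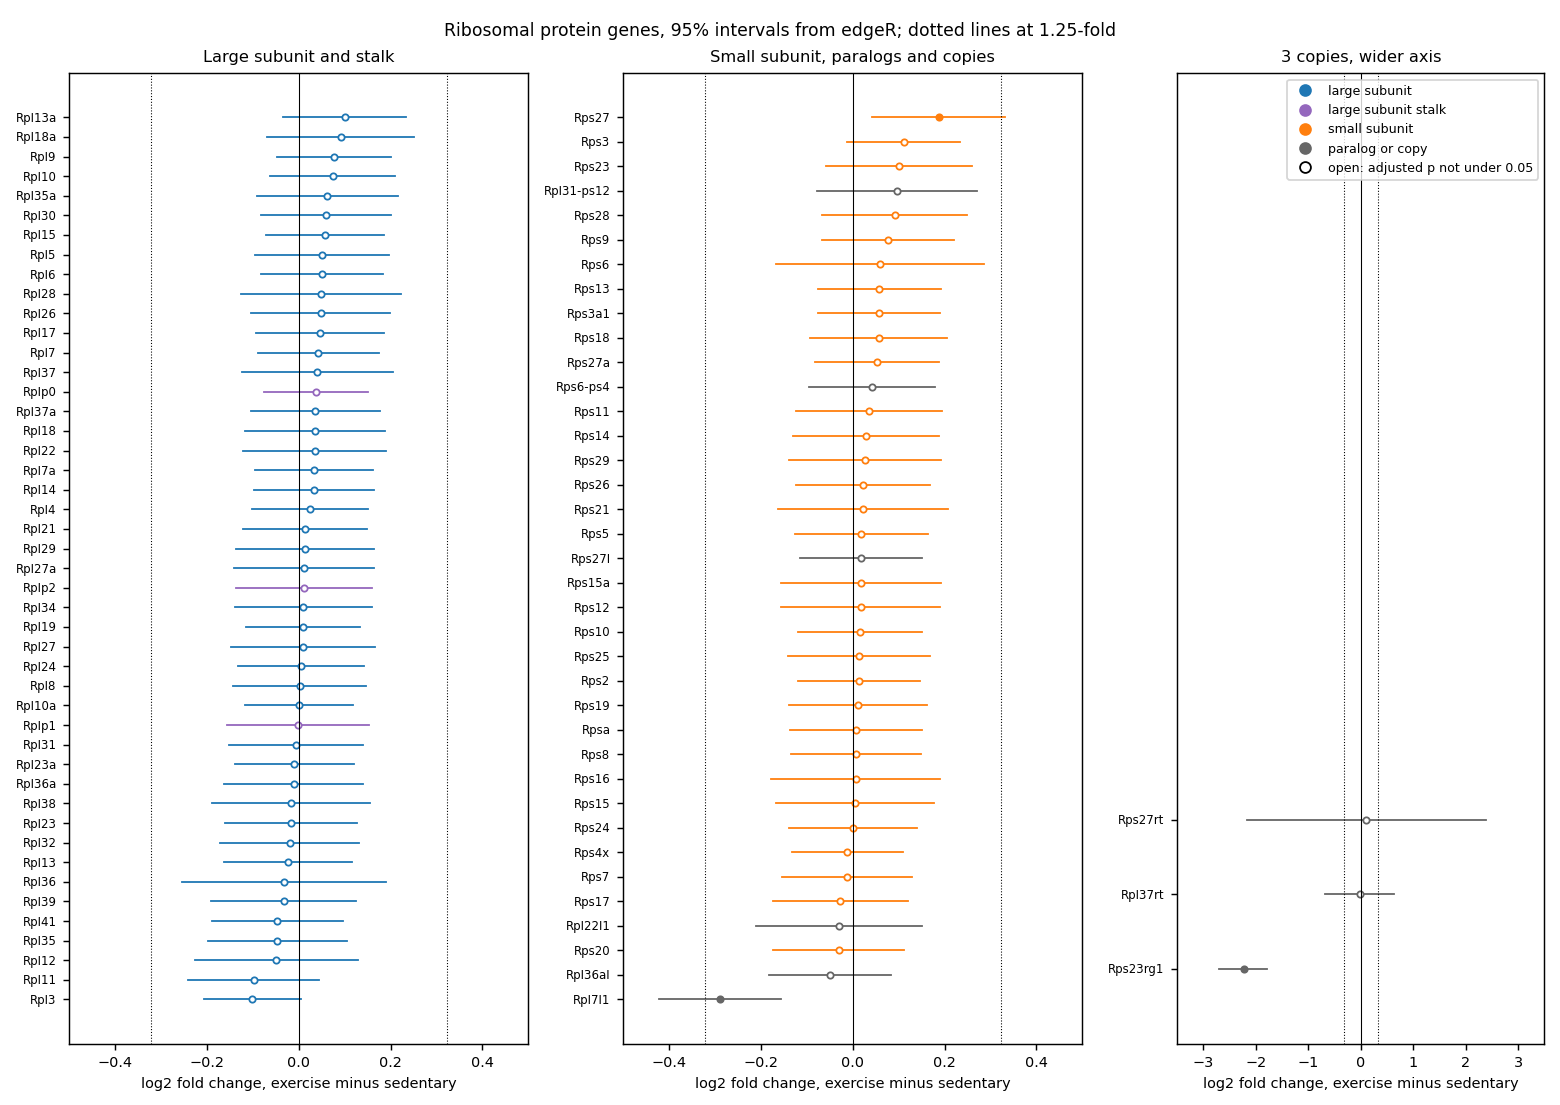
Log2 fold change (exercise minus sedentary) of each of the 86 tested members with its 95% interval from edgeR. Filled points passed the test, dotted lines mark 0.32 in either direction, and 3 copies have an axis of their own. Apart from Rps27, Rpl7l1 and Rps23rg1 the points are open and their intervals cross 0.

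By subunit, 0 of 43 large subunit genes passed the test (median log2 fold change 0.013, from -0.10 to 0.10), against 42.4% of all genes. Of the 43, 0 had an unadjusted p under 0.05 by edgeR, against 6128 of the 12344 genes tested. At the stalk, 0 of 3 passed, also at an unadjusted p under 0.05. In the small subunit 1 of 31 passed (median 0.019, from -0.031 to 0.19). Above 0 were 26 of the 31 values, against 6117 of the 12344 genes tested. Rpl3, of the large subunit, passed with DESeq2, with library size alone and on both FPKM scales. Rpl11, also of the large subunit, passed with library size alone.

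Rplp0 encodes the protein that anchors the stalk, where translation factors bind. It lies on chromosome 5 of GRCm38 from 115559467 to 115563729. Its level was 427, 478, 462, 463, 410.2 and 452 CPM in Sedentary 1 to 6 and 449, 460, 441, 466, 468 and 480.2 CPM in Exercise 1 to 6. The exercised livers thus lay within the range of the sedentary ones but for Exercise 6, and the sedentary livers were the more spread. The means were 449 ± 25.5 and 461 ± 14.1 CPM (SD, n = 6 each). The log2 fold change was 0.038 with a standard error of 0.054 (95% interval -0.075 to 0.15). It did not pass the test (edgeR adjusted p = 0.61; two-sided exact permutation test over all relabellings of 6 against 6 livers, p = 0.335). On the scale of library size alone the value turned to -0.060, and on log2(FPKM + 0.1) to -0.057, neither past the threshold.

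Rplp0 was set beside 22 other genes in common use as references, a list written from general knowledge. Over the 12 livers its log2 CPM had an SD of 0.067, the lowest of the 23, followed by Hprt (0.072), Sdha (0.072) and Pgk1 (0.073). It was also the lowest of the 77 members at 100 CPM or more. With library size alone or FPKM as the scale it kept the lowest SD of these members, but 6 of the other 22 reference genes then had a lower one. Of the 23, 9 passed the test, 6 higher and 3 lower, near the background share. Actb (cytoskeletal actin) was lower by 0.75 on the log2 scale (standard error 0.11, edgeR adjusted p = 7.38e-05), and Tfrc, the transferrin receptor, by 1.01 (0.12, edgeR adjusted p = 1.55e-05). Polr2a, the largest subunit of RNA polymerase II, rose by 0.65 (0.074, edgeR adjusted p = 2.72e-06), and Hsp90ab1, a cytosolic chaperone, by 0.60 (0.082, edgeR adjusted p = 1.76e-05).

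The other ribosomal protein genes in that list did not pass the test. Rpl13a, which is also known for a part in the interferon response, had a log2 fold change of 0.10 (95% interval -0.035 to 0.23) from 417 ± 35.2 to 446 ± 26.8 CPM. Rps18 had 0.056 (-0.092 to 0.21), Rpl32 had -0.020 (-0.17 to 0.13) and Rps29 had 0.027 (-0.14 to 0.19). The SDs over the 12 livers were 0.11 for Rpl13a, 0.13 for Rpl32, 0.13 for Rps18 and 0.15 for Rps29, each wider than that of Rplp0.

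**Figure D2:**
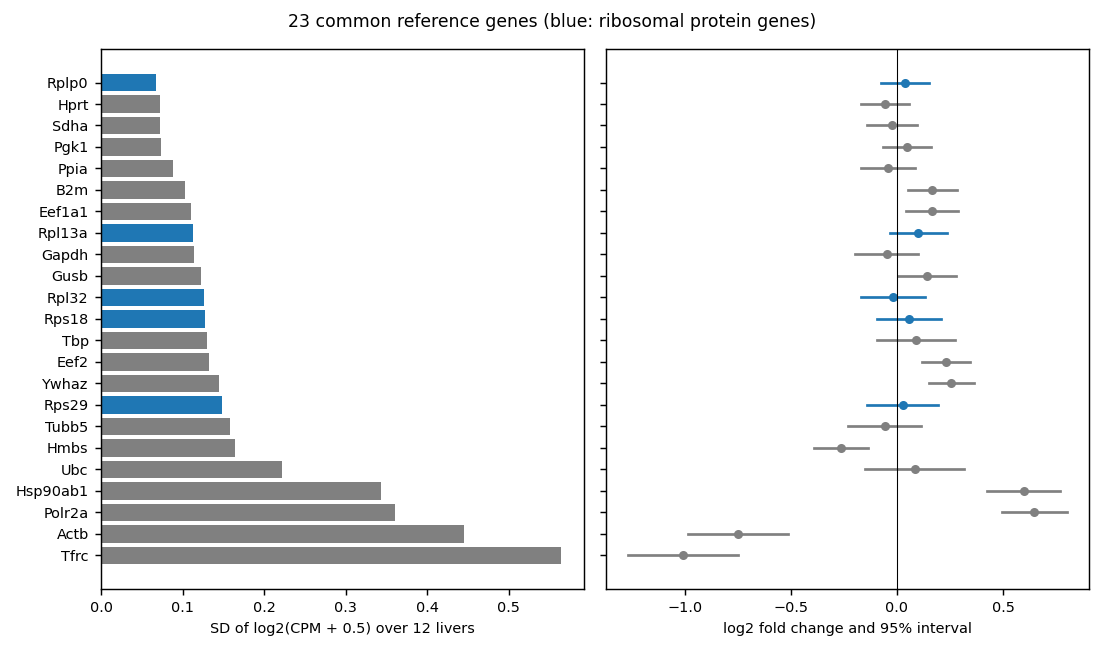
SD of log2(CPM + 0.5) over the 12 livers (left) and log2 fold change with its 95% interval (right) for 23 reference genes, ordered by SD, with ribosomal protein genes in blue. Rplp0 is at the top with an SD of 0.067, and Tfrc and Actb are at the bottom.

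Rps27 was the member that rose. It encodes a small subunit protein with a zinc finger and lies on chromosome 3 from 90212667 to 90213648. Its level was 185, 222, 209, 230.0, 186 and 186 CPM in Sedentary 1 to 6 and 211, 259, 224, 229.5, 238 and 226 CPM in Exercise 1 to 6. The groups overlapped, since Sedentary 2 and Sedentary 4 lay among the exercised livers. The mean went from 203 ± 20.1 to 231 ± 16.4 CPM, a log2 fold change of 0.19 with a standard error of 0.069 (95% interval 0.042 to 0.33). The edgeR adjusted p was 0.0366. The exact permutation p, for this gene alone and not adjusted, was 0.0303. The call was lost without Sedentary 1, 5 or 6 or without Exercise 2, 4 or 5 (log2 fold change 0.15 to 0.23 when single livers were left out). It was also lost with library size alone (0.092), on log2(FPKM + 0.1) (0.094), with upper quartile scaling (0.17) and with Rplp0 as internal control (0.15).

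Rpl7l1 fell. It encodes a relative of RPL7 that is known from ribosome assembly, and it lies on chromosome 17 from 46773907 to 46782656. Its level was 60.1, 63.8, 66.7, 57.1, 56.6 and 60.8 CPM in Sedentary 1 to 6 and 56.8, 47.1, 44.5, 49.0, 51.5 and 49.9 CPM in Exercise 1 to 6. Only Exercise 1 reached the sedentary range. None of the 12 counts of Rpl7l1 was a whole number, so reads were divided between Rpl7l1 and other genes by estimate. Whether this division contributed to its value was not tested. The log2 fold change was -0.29 with a standard error of 0.063 (95% interval -0.42 to -0.16, edgeR adjusted p = 0.00121). The exact permutation p, for this gene alone and not adjusted, was 0.00433. Rpl7 itself was at 284 ± 26.9 CPM in sedentary and 292 ± 10.6 CPM in exercised livers and did not pass the test.

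Rps23rg1 had the largest decrease of the 86 members tested. Its counts were 44.2, 80.7, 82.1, 55.9, 41.4 and 66.5 in Sedentary 1 to 6 and 8.29, 14.3, 9.82, 11.7, 16.5 and 11.6 in Exercise 1 to 6. The groups did not overlap, which held for 1 of the 86 members and for 22.3% of all genes tested. The mean went from 3.10 ± 0.83 to 0.65 ± 0.14 CPM, a log2 fold change of -2.23 with a standard error of 0.21 (95% interval -2.69 to -1.80, edgeR adjusted p = 4.08e-07, exact permutation p = 0.00216, the smallest that 6 against 6 livers allow). None of its 12 counts was a whole number, so reads were divided between it and other genes by estimate. It is named as a retrogene of Rps23, and it spans chromosome 8 from 3567998 to 3584776. RefSeq places a pseudogene of Rps23, Rps23-ps2, inside it from 3583752 to 3584250.

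The pseudogene transcript in GENCODE (432 bases) matched Rps23 at 430 positions and differed at 2. The first 80 coding bases of Rps23 and the same stretch of the pseudogene are shown as an example of how alike they are, with the position that differs in capitals.
Rps23: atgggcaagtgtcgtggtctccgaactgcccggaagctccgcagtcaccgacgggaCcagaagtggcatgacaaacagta
Rps23-ps2: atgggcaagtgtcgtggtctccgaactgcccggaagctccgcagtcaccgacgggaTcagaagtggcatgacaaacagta
Of the 2 differing positions, 1 lies in these 80 bases. The count and FPKM of Rps23rg1 imply a transcript of about 1574 bases, longer than the pseudogene, and which part of the gene its counts come from was not tested. Rps23 had 230.4 ± 27.4 CPM in sedentary and 247 ± 17.7 CPM in exercised livers, so Rps23rg1 took 0.977% to 1.93% of the pair's counts in sedentary and 0.190% to 0.335% in exercised livers. With the counts of both added together, the log2 fold change was 0.086 (standard error 0.076, edgeR adjusted p = 0.389). Whether the division of reads contributed to the value of Rps23rg1 was not tested.

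**Figure D3:**
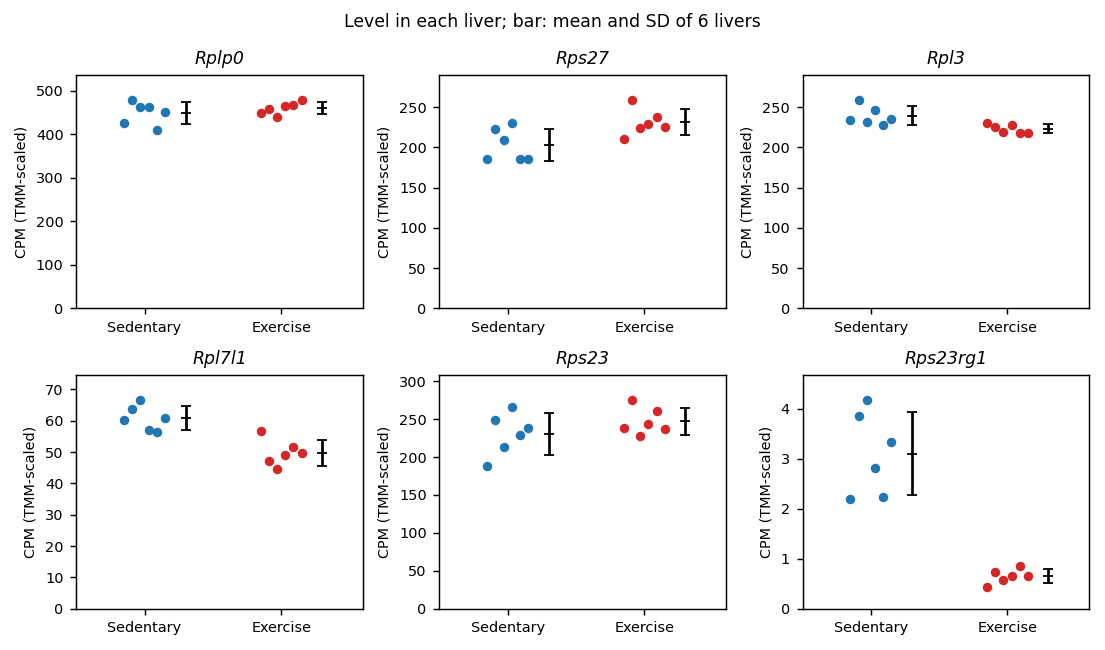
CPM of Rplp0, Rps27, Rpl3, Rpl7l1, Rps23 and Rps23rg1 in each liver, with each axis from 0 and the mean and SD of 6 livers beside the points. The groups do not overlap for Rps23rg1, while those of the other 5 do.

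Other members were read by their roles. The stalk proteins RPLP1 and RPLP2 recruit elongation factors, and their genes were at 350.0 ± 36.0 and 140.2 ± 15.1 CPM in sedentary and 349 ± 28.0 and 141 ± 9.12 CPM in exercised livers. Rpl5 and Rpl11 encode the proteins that bind 5S rRNA and, when unassembled, MDM2. Rpl5 had a log2 fold change of 0.050 (95% interval -0.096 to 0.20) and Rpl11 of -0.099 (-0.24 to 0.045), neither past the test. Rpsa, which is also described as a laminin receptor, was at 639.6 ± 54.6 and 643 ± 48.6 CPM.

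Rps3, a small subunit protein with a known role in DNA repair, was at 247 ± 18.6 CPM in sedentary and 266 ± 11.6 CPM in exercised livers (edgeR adjusted p = 0.143). The lowest log2 fold change in the large subunit was that of Rpl3, which lies near the peptidyl transferase center. It was at 235, 259.5, 232, 247, 228 and 236 CPM in Sedentary 1 to 6 and at 230.4, 226, 219, 228, 218 and 219 CPM in Exercise 1 to 6. Exercise 1 lay above Sedentary 5, and each other exercised liver lay below each sedentary liver. The log2 fold change was -0.10 with a standard error of 0.050 (95% interval -0.21 to 0.004, edgeR adjusted p = 0.113), while the exact permutation p for this gene alone was 0.00433. It passed the threshold with DESeq2, with library size alone and on both FPKM scales.

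Several members have a close relative whose reads could have been shared. Of the 91 members, 45 had whole counts in all 12 libraries and 22 had no whole count in any. Rps6 encodes the small subunit protein that the S6 kinases phosphorylate. Its counts ran from 179 to 331 in sedentary and from 198 to 279.7 in exercised livers, whereas the copy Rps6-ps4, a transcribed pseudogene on chromosome 2 from 75190995 to 75191854, had 7867 to 10588 and 7731 to 9632. All 750 bases of the copy's transcript in GENCODE match Rps6. The sum of the 2 counts was whole, within 0.02, in 12 of 12 libraries, and the copy held 97.0% to 98.0% of it in sedentary and 97.2% to 97.5% in exercised livers. The level of either alone is therefore uncertain. Rps6 had a log2 fold change of 0.060 (95% interval -0.17 to 0.29), Rps6-ps4 of 0.042 (-0.095 to 0.18), and their sum of 0.042 (standard error 0.065, edgeR adjusted p = 0.642).

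Other pairs were added in the same way, although the sum was whole in 1 of 12 libraries for Rpl31, in 2 for Rpl37 and in 5 for Rps23 with their copies, so these pairs do not hold all of the reads they share. Rpl31 and Rpl31-ps12 (371 of 375 bases alike, 30.2% to 35.9% of the pair's counts on the copy) gave 0.028 (edgeR adjusted p = 0.788), and Rpl37 with Rpl37rt (293 of 294 bases) gave 0.033 (edgeR adjusted p = 0.772). Rps27rt matched Rps27 at 341 of 341 aligned bases. It was listed at exactly 11.61 counts in 6 libraries and at 0 in the other 6, and its sum with Rps27 was whole in all 12. Rps27 with Rps27rt gave 0.19 (edgeR adjusted p = 0.0365), which left that call as it was.

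Of 14 tested genes in a list of paralogs and the genes they are related to, 2 passed the test (14.3%, against 42.4% of all genes). These were Rpl7l1 (lower) and Rps27 (higher), as given above. Rps27l, a p53-inducible relative of Rps27, was at 101 ± 10.5 CPM in sedentary and 102 ± 1.97 CPM in exercised livers. Rpl22l1, which can replace RPL22, was at 13.6 ± 1.51 and 13.3 ± 1.40 CPM, and Rpl22 at 115 ± 12.9 and 117 ± 8.67 CPM. Rpl36al was at 175 ± 17.2 and 169 ± 6.40 CPM, beside Rpl36a at 117 ± 14.4 and 117 ± 6.13 CPM. Rpl39 was at 78.1 ± 9.36 and 76.3 ± 5.14 CPM, Rps4x at 283 ± 20.6 and 280.3 ± 10.7 CPM, Rpl29 at 267 ± 29.5 and 269.4 ± 16.9 CPM, and Rpl26 at 222 ± 25.6 and 229 ± 12.6 CPM. These 9 did not pass the test. The testis paralogs Rpl10l and Rpl39l had 5.00 and 2.99 counts in all, and Rpl3l, the paralog of heart and skeletal muscle, had 18.99 counts over the 12 libraries.

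Although the groups were close, single livers were not. The members together took 1.91% to 2.49% of all counts in sedentary livers (mean 2.18% ± 0.24) and 1.78% to 2.28% in exercised livers (2.07% ± 0.17). Their summed level was 18352, 22877, 20788, 23576, 19705 and 20753 CPM in Sedentary 1 to 6 and 20580, 22538, 19497, 21574, 22233 and 21590 CPM in Exercise 1 to 6. The highest sedentary liver was 1.28 times the lowest, and the highest exercised liver 1.16 times the lowest. The exercised range lay inside the sedentary range.

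The members moved together from liver to liver. Of the 77 members at 100 CPM or more, 69 had their lowest sedentary value in Sedentary 1 and 59 their highest in Sedentary 4, while 66 had their lowest exercised value in Exercise 3. The median deviation from a gene's own mean was -0.21 (log2) in Sedentary 1, 0.17 in Sedentary 4 and -0.11 in Exercise 3. Rplp0 followed less far in the same livers, at -0.090, 0.029 and -0.044. This did not hold in every liver. Rplp0 lay further out than the members' median in Sedentary 5 (-0.15 against -0.10) and Exercise 6 (0.080 against 0.031). In Sedentary 3 it had the other sign (0.025 against -0.017). In Sedentary 1 the median deviation was -0.11 over 224 other genes of that level with a similar implied length and -0.18 over 14 other translation genes with a TOP tract. It was 0.11 and 0.046 in Sedentary 4 and -0.044 and -0.044 in Exercise 3. These values move with those of the members, and their part in them was not tested.

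The spread within a group was larger in sedentary livers, with a median SD of 0.14 (log2) over the 77 members against 0.087 in exercised livers. The SD was larger in the sedentary group for 75 of the 77. Over the 1124 other genes at that level the medians were 0.13 and 0.096, and 73.8% had the larger SD in the sedentary group. The genes share their libraries, so these counts are a description and not independent observations.

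**Figure D4:**
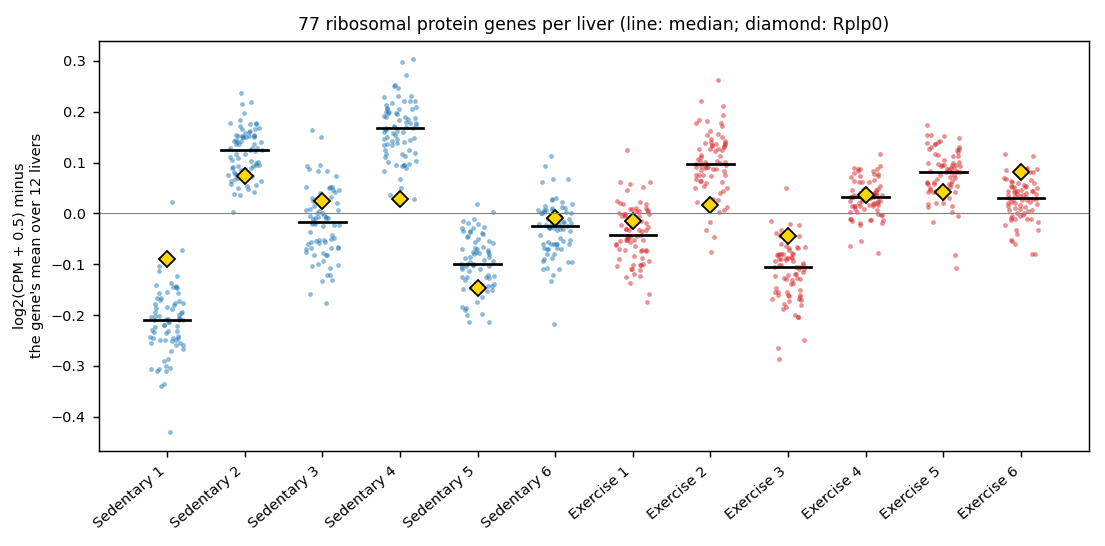
Deviation of log2(CPM + 0.5) from each gene's mean over 12 livers, for 77 members (points), with the median of each liver (line) and Rplp0 (diamond). The points shift together, lowest in Sedentary 1 (median -0.21) and highest in Sedentary 4 (0.17), with no separation of the groups.

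The surrounding machinery was read from lists made from general knowledge. Rack1, a scaffold protein on the small subunit, and Fau did not pass the test, with log2 fold changes of 0.013 (95% interval -0.11 to 0.13) and 0.036 (-0.12 to 0.20), and neither did Rps27a, a member that encodes a ribosomal protein fused to ubiquitin (0.053, -0.081 to 0.19). A list of 27 translation factor and related genes whose mRNAs are known for TOP tracts included Rack1 and Fau. Of the 27, 10 passed (37.0%, against 42.4% of all genes), with a list median of 0.073. All 10 were higher (against 21.1% of all genes). They included Nap1l1 (log2 fold change 0.36, standard error 0.057), Eif4b (0.31, 0.054), Ubap2l (0.25, 0.049) and Eif4a2 (0.28, 0.056), a histone chaperone, a partner of the eIF4A helicase, an RNA-binding protein and a form of that helicase. The median turned to -0.021 with library size alone and to -0.020 on log2(FPKM + 0.1), with 5 higher and 2 lower in each.

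Genes that control translation, such as mTOR components, kinases and eIF4E partners, gave 8 higher and 9 lower of 26 tested (65.4% called, against 42.4% of all genes). The balance depended on the scale, with 2 higher and 12 lower for library size alone, 1 and 9 for Rplp0 as internal control and 1 and 12 on both FPKM scales. Mknk2, a kinase that phosphorylates eIF4E, rose by 1.19 (standard error 0.061), while Rps6ka1 (an S6 kinase of the RSK family), Eef2k (the kinase that inhibits elongation factor eEF2) and Eif4a1 (the main eIF4A helicase) fell by 0.71 (0.10), 0.79 (0.12) and 0.28 (0.054). Of 11 chaperones and importers of ribosomal proteins, 2 were higher and 4 lower (54.5% called, against 42.4% of all genes), and 7 were lower with library size alone. Grwd1 and Ltv1, both known from ribosome assembly, fell by 0.77 (0.098) and 0.44 (0.091), and the importer Ipo7 rose by 0.43 (0.060).

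The ribosome of the mitochondrion gave other counts. Of 78 genes for mitochondrial ribosomal proteins, 38 passed the test, 36 of them lower and 2 higher (48.7% called, against 42.4% of all genes, of which 21.3% were lower), with a median log2 fold change of -0.16 (from -0.25 to -0.14 over all the alternatives). Mrps18b, Mrpl12, Mrps2 and Mrps34 fell by 0.65 (standard error 0.084), 0.37 (0.050), 0.64 (0.089) and 0.46 (0.068). The cytosolic members had 2 of 86 lower on the same livers and the same scale. The difference between the lists was described by these counts and was not tested.

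**Figure D5:**
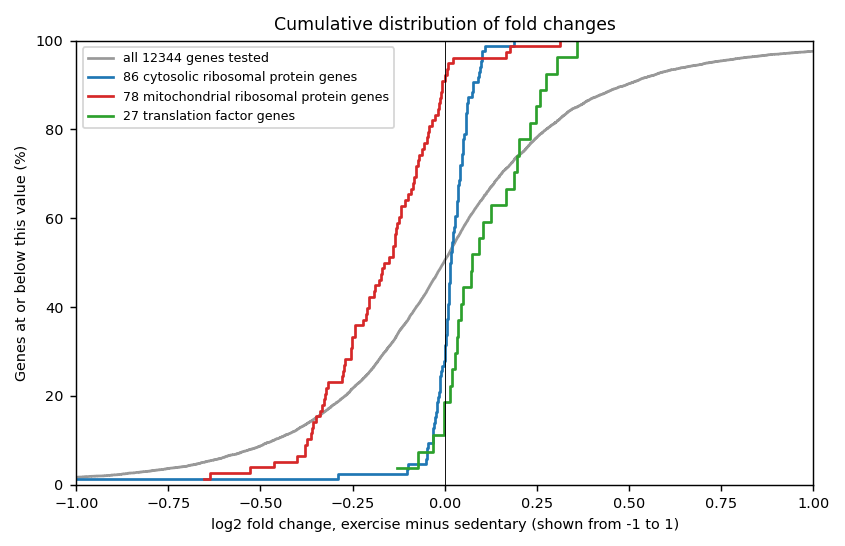
Cumulative share of genes (%) by log2 fold change, shown from -1 to 1, for all 12344 genes tested, 86 cytosolic members and 78 mitochondrial ribosomal protein genes. The last curve holds 27 translation factor and related genes, Rack1 and Fau among them. The cytosolic curve rises steeply around 0.016, the mitochondrial one has its median at -0.16 and the last one at 0.073.

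Libraries held 18745379 to 19324461 counts. Hepatocyte markers summed to between 134609 and 179832 CPM in sedentary and between 167265 and 190585 CPM in exercised livers. Of 11 tested, 4 passed (36.4%, against 42.4% of all genes), all higher (Alb, Ass1, Hnf4a and Pck1). The median log2 fold change of the list was 0.19, from -0.020 to 1.93 (Pck1). Kupffer cell markers summed to between 64.95 and 119 CPM, with 0 of 7 past the test (0 at an unadjusted p under 0.05 by edgeR). Striated muscle markers were low, and 6 of 7 tested of 17 listed fell, namely Myh6, Myh7, Actc1, Tnnt2, Tnni3 and Myl7. Mylpf, the other gene tested, did not pass (log2 fold change 0.043). The list summed to 13.6 to 28.4 CPM in sedentary livers and to 1.56 to 2.87 CPM in exercised livers other than Exercise 1. Exercise 1 had 14.3 CPM. Without Exercise 1 the members called were again 3, against 5028 of the 12444 genes tested. Among the other lists, 3 endothelial markers were higher and 1 lower of 7, 2 stellate cell markers were lower of 8, and 0 of 5 cholangiocyte, 0 of 2 lymphocyte and 0 of 5 erythroid markers passed. The medians of the erythroid and lymphocyte markers were -0.23 and -0.31 (log2). The part of such cells in the members' values was not tested.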

How the data were processed

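Liver RNA of 12 mice was sequenced with a dual-mode mRNA kit from BGI. The authors deposited an estimated (expected) count and an FPKM value per gene and library. The processing notes of the submitters name Bowtie2 2.3.4.3, RSEM 1.3.1 and the build mm10, and the annotation is not given in the sources used here. Between libraries the deposited estimated counts carry no scaling, and 31.3% of them are not whole, because RSEM divides shared reads. The FPKM values of the authors are scaled for transcript length and depth. At these depths the spread between the 6 mice of a group exceeds counting error for the abundant members.

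The counts, rounded, entered a robust quasi-likelihood fit in edgeR 4.0.16 (R 4.3.3) with TMM factors, a minimum count of 10 and Benjamini-Hochberg adjustment, and the biological coefficient of variation was 11.3%. Single genes also had a two-sided exact permutation test on log2(CPM + 0.5), on the same values and without adjustment for the number of genes. The members and lists were chosen with earlier results of these data known. Named members were Rplp0, those past the threshold, the 5 highest and 5 lowest by FPKM, paralogs and 11 with known roles. Others named were the 4 genes with the smallest p of a list. Hprt, Sdha, Pgk1, Fau, Rack1, Rps27a, 4 hepatocyte markers, the tested striated muscle markers and the close copies were chosen after their values were seen. Alternatives were other scalings, filters and thresholds, DESeq2 1.42.0, limma 3.58.1, the replicate number as a block and leaving out each liver. Adding counts of close copies was chosen after seeing the data. Transcripts were compared with Biopython 1.88 on GENCODE. The tests were tried on simulated data. A gene of these lists is not reported here.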

Additional observations from a re-analysis of the deposited data

Results flagged for a closer look

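Among 64 groups of 6 livers (32 named members in each group of mice), 1 value stood apart. Rpl39 was at 66.3 CPM in Exercise 3, where the next exercised liver was at 75.7 CPM (gap over range 0.677). Such a gap is found by chance in about 1 of 20 groups. Exercise 3 was the lowest exercised liver for 66 of the 77 members at 100 CPM or more.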

How the results depend on the processing

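The number of members called stayed between 2 and 4 under every alternative run, and their median log2 fold change between -0.079 and 0.055. At an adjusted p under 0.05, the genes called over the whole table ranged from 4739 of 12416 (without Sedentary 3) to 5502 of 12344 (library size alone). Members with an interval within 0.32 of no change were 78 to 82. Members called higher were 0 in place of 1 with upper quartile scaling, library size alone, Rplp0 as internal control, both FPKM scales and an adjusted p under 0.01, and 0 to 1 when 1 liver was left out. Members called lower were 4 with library size alone (Rpl3 and Rpl11 added), 1 when each library needed at least 10 counts (Rps23rg1 was then untested) and 1 with copies added together. DESeq2 and both FPKM scales also added Rpl3. Among the members followed singly, 6 that passed under no alternative turned sign with the scale. The other members were not followed singly, and the median over all members was -0.079 with library size alone. With library size alone, log2(FPKM + 0.1) and log2(FPKM + 1), the log2 fold changes were -0.060, -0.057 and -0.057 for Rplp0, -0.039, -0.019 and -0.019 for Rps6, -0.053, -0.049 and -0.049 for Rps6-ps4, -0.039, -0.035 and -0.035 for Rps18, -0.069, -0.061 and -0.061 for Rps29, and -0.046, -0.039 and -0.039 for Rpl5. These scales do not correct for the composition of the library, and the median over all genes moved to -0.098 with library size alone. Rps29 was at -0.0071 with Rplp0 as internal control. With 1 liver left out, Rplp0 ranged from 0.017 to 0.057, Rpl32 from -0.067 to 0.019, Rps29 from -0.027 to 0.070 and Rps6-ps4 from -0.0037 to 0.074. The share of the members was 5.01% and 4.85% (sedentary and exercised) of summed FPKM, and 2.76% and 2.66% of the counts outside the 10 most abundant genes. With the replicate number as a block, 3 members were called, against 4956 of the 12344 genes tested, and the median of the members was 0.022. Deviations of same-numbered livers had correlations from -0.099 to 0.16. The main test did not treat these livers as pairs, and low correlations cannot exclude that the numbers pair them. Rps6, Rpl7l1, Rps23rg1 and other copies are limited by the division of reads. With a median standard error of 0.069 changes of that size were not detectable with 6 livers a group.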
